A study of Mus musculus with 4 samples.

Results

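Decorin, biglycan and 8 further proteoglycan genes were followed in 4 expression arrays of immortalized mouse fibroblasts. The 10 genes (Dcn, Bgn, Lum, Fmod, Vcan, Sdc1, Sdc2, Sdc4, Gpc1 and Hspg2) were taken by name from the platform annotation, out of 17711 genes on the array, with every probe of each. Dcn was selected on its measured log2 difference with miR-200c, which in earlier results of these data ran against other matrix genes, so that difference is given as a description. Each of 4 groups held 1 library. Cells had received the transfection reagent alone (called transfectant only), a control miRNA, miR-141 or miR-200c for 48 h, and the culture was treated with 400 µM hydrogen peroxide for 2 h at the end. The transfection field of the first library reads none, while its description names the transfectant. Strain, donor tissue, the means of immortalization and the transfected miRNA arm were not stated in the labels. With 1 library a group there was no test, no SD and no replicate check, and precision is limited by having 4 arrays.

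Proteoglycans are core proteins that carry long sulfated sugar chains called glycosaminoglycans. Decorin, biglycan, lumican and fibromodulin are small leucine-rich proteoglycans that bind collagen fibrils, and decorin and biglycan also bind TGF-beta. Versican is a large chondroitin sulfate proteoglycan, perlecan (Hspg2) is a basement membrane heparan sulfate proteoglycan, and syndecans (Sdc1, Sdc2, Sdc4) and glypican-1 (Gpc1) carry heparan sulfate at the cell surface. Fibroblasts are a main source of decorin and biglycan in connective tissue.

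The mature miRNAs are shown because the groups differ by them and because a miRNA pairs with its targets mainly through the seed, bases 2 to 8, printed in capitals. The sequences are those of RefSeq on GRCm38.p6, and all lie on the minus strand.
mmu-miR-141-3p (chr6:124717917-124717938): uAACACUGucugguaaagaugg
mmu-miR-200a-3p (chr4:156054911-156054932): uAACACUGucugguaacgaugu
mmu-miR-200c-3p (chr6:124718324-124718346): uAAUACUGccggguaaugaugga
mmu-miR-200b-3p (chr4:156055685-156055706): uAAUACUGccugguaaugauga
mmu-miR-429-3p (chr4:156053916-156053937): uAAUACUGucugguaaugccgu
mmu-miR-141-5p (chr6:124717959-124717980): cAUCUUCCagugcaguguugga
mmu-miR-200c-5p (chr6:124718365-124718386): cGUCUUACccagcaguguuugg
The 3p arms fall into a pair of seed groups, miR-141 with miR-200a and miR-200c with miR-200b and miR-429. Counted from the 5′ end of miR-141-3p, miR-200c-3p differs in the seed by C4U, and outside it by U9C, U11G and A17U. The 5p arms are shown because either arm could have been the one used. Target sites in the proteoglycan transcripts were not analysed here.

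The deposited average bead signals were background-corrected, quantile-normalized and log2-transformed, and a probe was called detected at a detection p-value under 0.01. The mean raw signal ranged from 151 for control miRNA to 246 for transfectant only, and 6989 to 7152 genes were detected per library. A call required detection with the miRNA or in both controls, and a difference of at least 1.5-fold (0.58 on the log2 scale) from both controls in 1 direction. For scale, the control libraries differed from each other by an SD of 0.30 (log2) over the 6485 genes detected in all 4 libraries. Of 11 fibroblast markers 6 were detected in transfectant only and in control miRNA and 5 in each miRNA library. Vim, Col1a1, Fn1, S100a4 and P4ha1 were detected in every library and Pdgfrb in both controls, while Col1a2, Col3a1, Pdgfra, Thy1 and Fap were below detection in all 4. Of 4 cartilage markers Sox9, Col2a1 and Acan were detected in all 4 libraries and Comp in none. None of 4 macrophage markers was detected in any library. Several markers differed between the groups. Of the 6 detected fibroblast markers 2 were called lower with miR-141 and 3 with miR-200c, where 3.14% and 4.55% of all genes were. S100a4 was lower with both at -0.93 and -1.36 from control miRNA, Pdgfrb with both, and Col1a1 with miR-200c. The summed raw signal of the fibroblast list was 21154 with transfectant only, 13652 with control miRNA, 15537 with miR-141 and 12346 with miR-200c. Such sums are not normalized and carry the differences in mean raw signal between the arrays. The normalized log2 medians of the list, detected or not, were 5.70, 6.26, 5.31 and 5.13 in the same order. Sox9 was called lower with both miRNAs, at -0.82 and -0.77. Acta2, the 1 detected gene of 5 smooth muscle markers, was called lower with miR-200c at -0.93. Of 5 endothelial markers 2 were detected in any library and 0 were called with either miRNA. Of 10 epithelial markers 1 was detected in each control library and 5 in each miRNA library, and their summed raw signal was 568 with transfectant only, 474 with control miRNA, 733 with miR-141 and 1321 with miR-200c, with Epcam and Cdh1 below detection in all 4. The part of these markers in the proteoglycan values was not tested. In RNA from whole cultures, fewer cells of a type and less RNA per cell cannot be told apart.

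Of the 10 proteoglycan genes, 7 were detected, each in all 4 libraries. Lum, Fmod and Vcan were below detection in every library, so the counts that follow are over the 7 others. Between them the 10 genes had 18 probes, of which 10 were detected in at least 1 library. With miR-200c, 1 of the 7 genes was higher (Dcn) and 1 lower (Bgn) against both controls, where 4.07% of 7202 genes were called higher and 4.55% lower. That contrast was used to pick Dcn, and nothing is read from the count. With miR-141, 0 of the 7 were called higher and 0 lower, where 2.37% and 3.14% of 7188 genes were. The median log2 difference of the 7 genes from control miRNA was -0.22 for miR-141 and -0.09 for miR-200c, against 0.01 and -0.00 over all 7734 genes detected in at least 1 library.

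**Figure D1:**
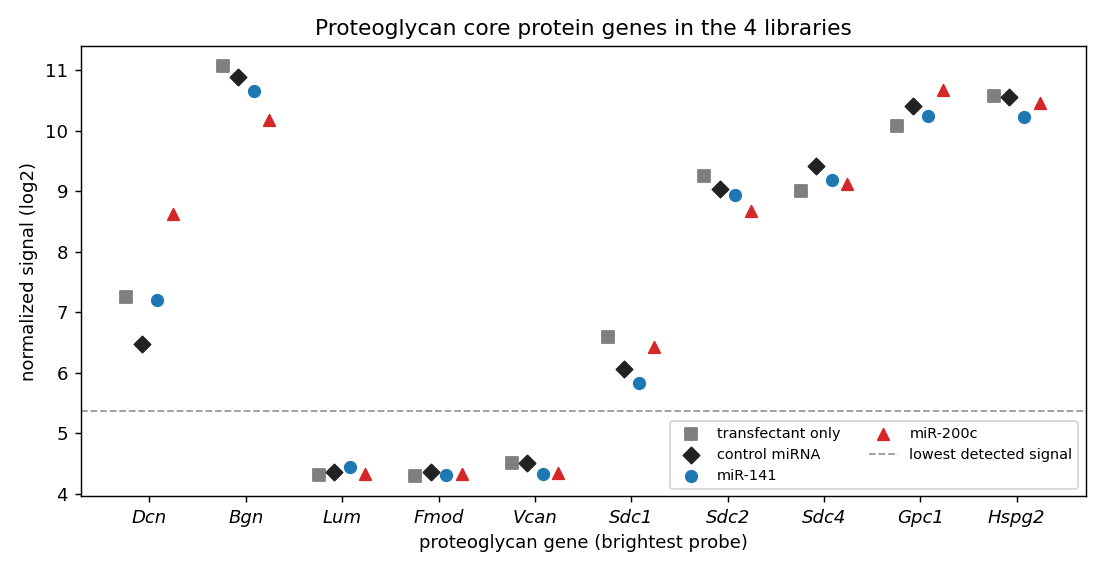
Normalized log2 signal of the brightest probe of each proteoglycan gene in the 4 libraries, 1 symbol per library; the dashed line is the highest of the lowest detected signals of the arrays. Dcn stands highest with miR-200c (8.62) and Bgn lowest (10.18), while Lum, Fmod and Vcan lie below the line; probes of different genes are not comparable in height.

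Decorin, the small leucine-rich proteoglycan that coats collagen fibrils, was highest with miR-200c. The raw signal of its brightest probe was 238 in transfectant only, 88.1 in control miRNA, 171 with miR-141 and 409 with miR-200c. After normalization the log2 signals were 7.25, 6.47, 7.21 and 8.62 in the same order. The miR-200c library stood above all others, transfectant only and miR-141 lay side by side, and control miRNA was lowest. Dcn was thus 4.44-fold higher with miR-200c than in control miRNA and 2.59-fold higher than in transfectant only, the larger value resting on the low control miRNA library. By the smaller of its differences, 1.37 on the log2 scale, it ranked 45 among the higher genes of the 7202 considered.

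With miR-141 the decorin transcript depended on the control. It was 1.66-fold higher than in control miRNA, at a log2 difference of 0.73, and level with transfectant only at -0.04. The direct difference between the miRNAs needs no control library, and there the miR-200c library exceeded the miR-141 library 2.67-fold in Dcn. Between the controls Dcn was 1.71-fold lower in control miRNA, a difference (-0.78) larger than that between transfectant only and miR-141. With the authors' processed values it was -0.58 and with the mean of the detected probes -0.50, both short of 1.5-fold.

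The array held 5 decorin probes, all read from the same RNA. Dcn was picked on its difference with miR-200c, so the place of that library on its probes is a description. On the second probe the log2 signals were 5.73 in transfectant only, 5.56 in control miRNA, 5.60 with miR-141 and 6.77 with miR-200c. All 4 values were detected, and miR-200c was again alone at the top, 2.32-fold above control miRNA, 2.06-fold above transfectant only and 2.26-fold above miR-141. The third probe was detected with miR-200c alone, at a log2 signal of 6.52. That was at least 2.27-fold higher than in control miRNA and at least 2.34-fold higher than in transfectant only. This probe passed detection only through the miR-200c library, so nothing is read from its order. The remaining 2 probes were below detection in every library, 1 of them annotated to a cDNA clone and not to the reference transcript. The gap between control miRNA and transfectant only was smaller on the second probe (-0.17) than on the first (-0.78). The excess of miR-141 over control miRNA was 0.04 on the second probe, against 0.73 on the first. In transfectant only, control miRNA and miR-141 the second probe lay near the lowest detected signals of those arrays (5.29, 5.33 and 5.36). So close to background it left little room for such gaps, so whether the probes disagree there cannot be told. Both probes had miR-200c highest. Among 1388 genes with 2 or more probes detected in all 4 libraries, the differences between miR-200c and control miRNA on the brightest 2 probes lay a median of 0.20 apart, and 0.52 at the 90th percentile. For Dcn they were 2.15 and 1.21. Probes on 1 array share their RNA and are not replicates of the condition.

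**Figure D2:**
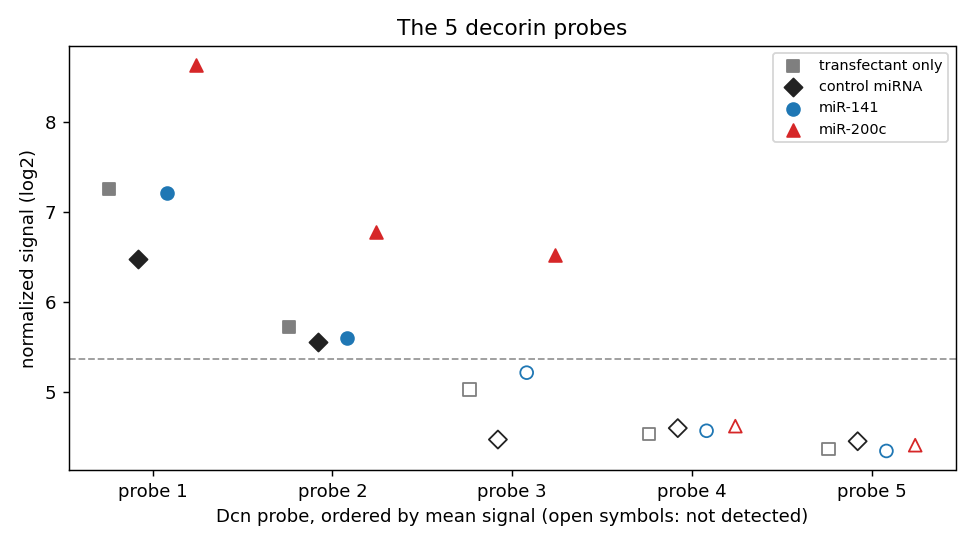
Normalized log2 signal of the 5 Dcn probes in the 4 libraries; filled symbols are detected values and open symbols values below detection. On the 2 probes detected in all 4 libraries the miR-200c library is highest (8.62 and 6.77). The third probe passed detection only through the miR-200c library (6.52), so its order is not read, and the other 2 probes lie at background. Dcn was picked on its difference with miR-200c, so the place of that library is a description.

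Decorin sits on chromosome 10 next to 3 genes of its own class. In the RefSeq gene order, Lum, Kera (keratocan) and Epyc (epiphycan) follow it, all small leucine-rich proteoglycans. These 3 neighbours were below detection in all 4 libraries, so no difference could be measured for them. On the other side Btg1, a gene linked to growth arrest, was detected in every library and differed from control miRNA by -0.06 with miR-200c and by -0.10 with miR-141.

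Biglycan, the closest relative of decorin among the 10, stood at the other end of the scale. Its single probe gave log2 signals of 11.06 in transfectant only, 10.90 in control miRNA, 10.65 with miR-141 and 10.18 with miR-200c. Both controls came first, then miR-141, then miR-200c. With miR-200c Bgn was lower by 1.64-fold against control miRNA and by 1.84-fold against transfectant only, and with miR-141 the log2 differences were -0.24 and -0.41, short of the call. It was at -0.47 with miR-200c relative to miR-141. When arrays were scaled by their medians in place of quantiles, the Bgn difference between miR-200c and control miRNA was -0.31 and missed the call, and that between miR-141 and control miRNA was 0.17, turned in sign. That scaling moved the median of all detected genes by 0.37 for either miRNA against control miRNA, and relative to this shift the Bgn values were -0.68 and -0.20.

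The collagen-binding keratan sulfate proteoglycans lumican and fibromodulin had 1 probe each, with log2 signals between 4.30 and 4.44 in all libraries. Versican had 2 probes, both at background, with log2 signals between 4.33 and 4.51. No fold is given for these 3 genes.

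The cell-surface heparan sulfate proteoglycans were measured in every library and differed less. Syndecan-2 (Sdc2), the syndecan typical of mesenchymal cells, had log2 signals of 9.25 in transfectant only, 9.04 in control miRNA, 8.94 with miR-141 and 8.68 with miR-200c. Its order over the libraries was the same as that of Bgn, with miR-200c at -0.57 from transfectant only, near the size of a call, and at -0.36 from control miRNA, well short of it. Syndecan-4 (Sdc4), a focal adhesion component, was at 9.01, 9.42, 9.19 and 9.11 in the same order of libraries. Both miRNA libraries lay between the controls for Sdc4, which themselves differed by 0.40. Glypican-1 (Gpc1), tied to the membrane by a lipid anchor, was at 10.07, 10.41, 10.25 and 10.67. It was highest with miR-200c, at 0.59 over transfectant only, just past the size of a call, and at 0.26 over control miRNA, which kept it from being called. A second Gpc1 probe was below detection in every library.

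Syndecan-1 (Sdc1), the syndecan typical of epithelium, was a dim gene in these fibroblasts. Its log2 signals were 6.60 in transfectant only, 6.07 in control miRNA, 5.83 with miR-141 and 6.43 with miR-200c. For miR-200c the value lay between the controls, and the miR-141 value lay below both. The miR-200c library exceeded the miR-141 library 1.52-fold in Sdc1, and without background correction this difference was 0.43 in place of 0.60 and missed the call. A second Sdc1 probe was below detection in every library. Among the 10 epithelial markers the largest difference with miR-200c was that of Krt8, at least 5.66-fold above control miRNA. Krt8 passed detection only in the miRNA libraries. Epcam, Cdh1, Krt18, Krt5 and Krt14 were below detection in every library.

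Perlecan (Hspg2), a basement membrane proteoglycan, was measured by 2 probes in all libraries. The brighter one was at 10.57 in transfectant only, 10.55 in control miRNA, 10.23 with miR-141 and 10.46 with miR-200c, while a dimmer one was at 9.48, 9.53, 9.06 and 9.25. On both probes miR-141 was lowest, by -0.33 and -0.47 from control miRNA, and miR-200c lay between miR-141 and the controls. None of these differences reached the size of a call.

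Set against each other, the miRNA libraries differed by 1.5-fold in 2 of the 7 genes, Dcn and Sdc1, both higher with miR-200c, and 0 were lower. Over 7285 genes 4.53% were higher and 4.01% lower in that comparison. It uses the miR-200c library on which Dcn was picked, so nothing is read from the count. Gpc1 at 0.42 and Hspg2 at 0.24 were also above 0 for miR-200c minus miR-141, and Bgn, Sdc2 at -0.26 and Sdc4 at -0.08 were below. Between the controls 1 of the 7 genes, Dcn, was lower in control miRNA and 0 were higher, where 4.51% and 3.16% of 7509 genes were. The comparisons with both miRNAs share their control libraries, and the miR-141 and miR-200c values are therefore not independent of each other.

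**Figure D3:**
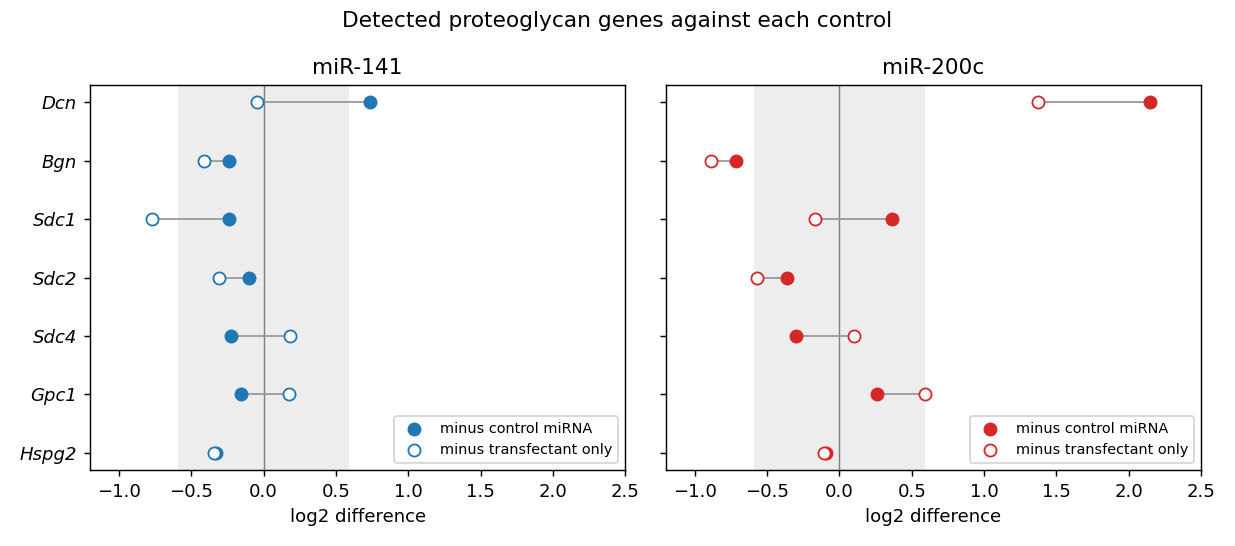
Log2 differences of the 7 detected proteoglycan genes for miR-141 (left) and miR-200c (right), filled against control miRNA and open against transfectant only; the grey band spans less than 1.5-fold. Only Dcn and Bgn, with miR-200c, have both points outside the band on 1 side (2.15 and 1.37 for Dcn, -0.71 and -0.88 for Bgn).

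Other proteoglycan genes were read from lists that were chosen with earlier results of these data known. Of 12 other small leucine-rich proteoglycan genes with a probe, 2 passed detection somewhere and 0 were called with either miRNA. Both, Ogn (osteoglycin) and Ecm2, were detected in control miRNA alone. Among 20 further proteoglycan genes 10 were detected, of which miR-141 had 1 higher and 2 lower and miR-200c 1 higher and 1 lower. Over all genes 2.37% were called higher and 3.14% lower with miR-141, and 4.07% and 4.55% with miR-200c. The median difference of the 10 from control miRNA was 0.09 for miR-141 and -0.07 for miR-200c.

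Agrin (Agrn), a large heparan sulfate proteoglycan of basement membranes, was the higher one with both miRNAs. Its log2 signals were 9.63 in transfectant only, 9.80 in control miRNA, 10.72 with miR-141 and 11.04 with miR-200c, so both miRNA libraries stood above both controls. The differences from control miRNA were 0.92 and 1.25. A second Agrn probe was detected in 1 library, and no difference is read from it. Syndecan-3 (Sdc3) was the gene lower with both, at 10.70 in transfectant only, 10.41 in control miRNA, 9.81 with miR-141 and 9.33 with miR-200c. Its differences from control miRNA were -0.60 and -1.09. Betaglycan (Tgfbr3), the proteoglycan co-receptor of TGF-beta, was lower with miR-141 alone, at 7.43 against 9.18 in transfectant only, 8.72 in control miRNA and 9.26 with miR-200c. Cd44, the hyaluronan receptor, kept within 0.12 of both controls with either miRNA, at log2 signals of 10.98 to 11.10.

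The enzymes that build and edit the sugar chains were called in a few places. The all-gene shares were 2.37% higher and 3.14% lower with miR-141, and 4.07% and 4.55% with miR-200c. Genes of the linker that starts each chain had 0 of 7 detected members called with either miRNA, with medians from control miRNA of -0.01 and -0.07. Sulfate donor genes had 0 of 4 called, breakdown genes 0 of 6 and hyaluronan genes 0 of 3. Chondroitin and dermatan sulfate synthesis had 0 of 6 called with miR-141 and 1 lower with miR-200c. This was Chsy1, which polymerizes chondroitin, at log2 signals of 10.52 in transfectant only, 10.27 in control miRNA, 9.88 with miR-141 and 9.39 with miR-200c, in the same order as Bgn.

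Heparan sulfate synthesis and editing had 1 of 11 detected genes lower with miR-141, 2 lower with miR-200c and 0 higher with either. The median difference of the 11 from control miRNA was -0.15 for miR-141 and -0.32 for miR-200c. Ext1, a subunit of the heparan sulfate polymerase, was at 11.21 in transfectant only, 11.06 in control miRNA, 11.07 with miR-141 and 10.42 with miR-200c, so that miR-200c alone stood apart. Hs3st1, which adds a rare 3-O-sulfate, was lower with miR-200c at -0.70 from control miRNA, and Sulf2, which removes 6-O-sulfate outside the cell, was lower with miR-141 at -0.74. With miR-200c Sulf2 was at -0.69 from control miRNA and -0.55 from transfectant only, short of the call. Hs6st2, which adds 6-O-sulfate and was named after its values were seen, was 1 of 2 genes of this list that miR-200c had 1.5-fold above miR-141, at 1.37. It had a second detected probe, which gave 1.22. The other gene was Glce, the heparan sulfate epimerase, at 0.62, also named after its values were seen. In the same comparison 1 gene of the list, Ext1, was lower with miR-200c at -0.65. Over all genes 4.53% were higher there and 4.01% lower. The Hs6st2 controls differed by -0.74 for control miRNA minus transfectant only, and relative to transfectant only miR-200c was at 0.21.

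**Figure D4:**
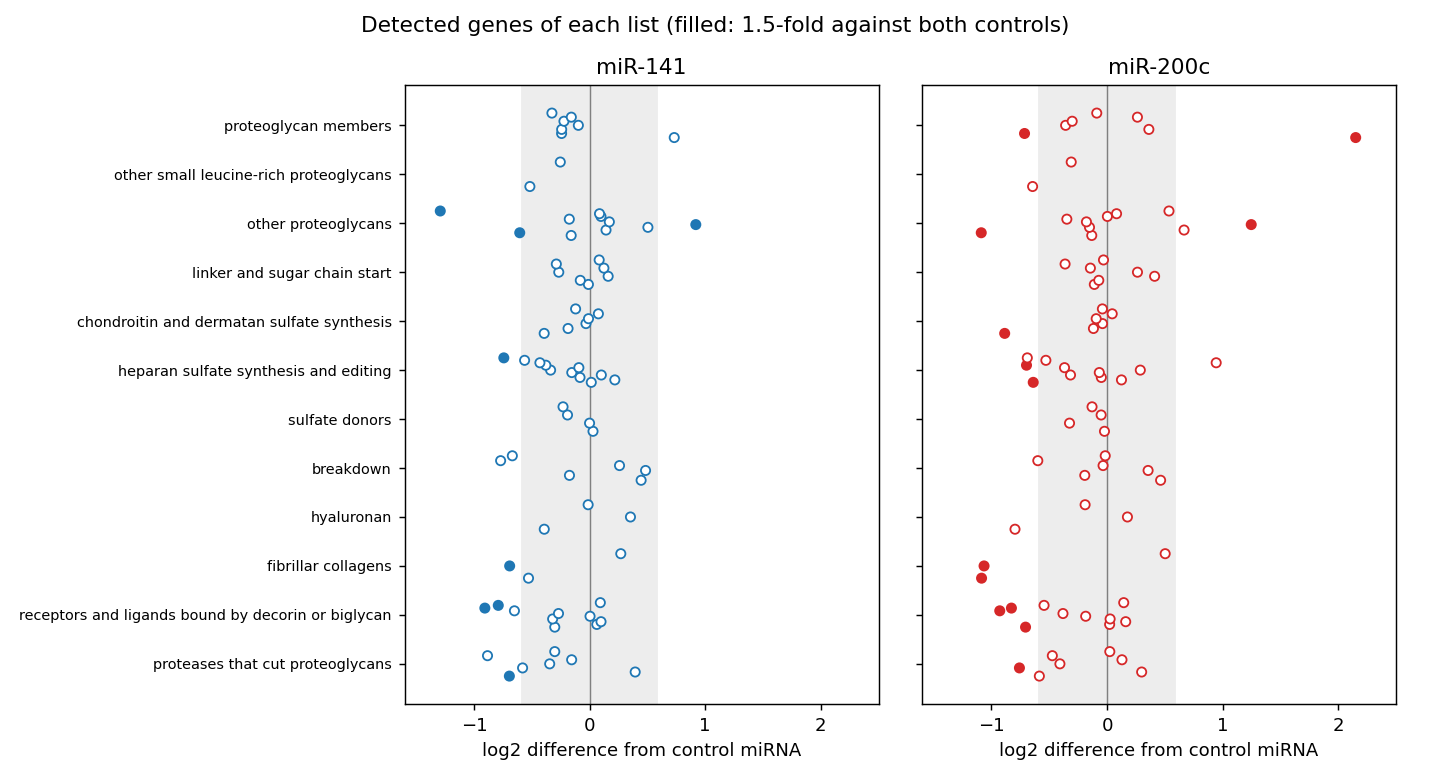
Log2 differences from control miRNA of the detected genes of each list, miR-141 on the left and miR-200c on the right, 1 point per gene; filled points were 1.5-fold apart from both controls in 1 direction and the grey band spans less than 1.5-fold. Dcn at 2.15 and Agrn at 1.25 are the points farthest right with miR-200c.

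The partners of decorin and biglycan were read from 3 further lists, against all-gene shares of 2.37% higher and 3.14% lower with miR-141 and of 4.07% and 4.55% with miR-200c. Of 7 fibrillar collagen genes 3 were detected, 1 of them lower with miR-141 and 2 with miR-200c. Col1a1, the main fibril chain that decorin binds, was at log2 signals of 11.59 in transfectant only, 11.99 in control miRNA, 11.46 with miR-141 and 10.90 with miR-200c. Col5a1, which sets fibril width, was at 11.86, 11.84, 11.15 and 10.77, below both controls with either miRNA. Col5a2 was at 0.50 from control miRNA and -0.04 from transfectant only with miR-200c. Dcn was selected for running against matrix genes with miR-200c, so its direction relative to these collagens is no result.

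Among receptors and ligands bound by decorin or biglycan, 2 of 10 detected genes were lower with miR-141, 3 were lower with miR-200c and 0 were higher with either. The lists hold 3 to 10 detected genes each and were not tested against other genes. The medians of the receptor and ligand list from control miRNA were -0.28 with both miRNAs. Tgfb1 was lower with both, at 6.88 in transfectant only, 6.97 in control miRNA, 6.07 with miR-141 and 6.15 with miR-200c. Tgfb2 was lower with miR-141 at -0.79 and at -0.55 with miR-200c. Lrp1, an endocytic receptor that takes up decorin, was lower with miR-200c at -0.93. Egfr, a receptor that decorin can engage, was called lower with miR-200c on its brightest probe at -0.71, but a second probe detected in all libraries was at 0.30, so the direction of Egfr is uncertain. Of proteases that cut proteoglycans, 1 of 7 detected genes was called lower with each miRNA. These were Adamts4, which cuts versican and aggrecan, at -0.69 with miR-141, and Mmp2, a gelatinase that can cleave decorin, at -0.76 with miR-200c. Each narrowly missed the call (0.585) with the other miRNA. Adamts4 with miR-200c was at -0.586 from control miRNA and -0.561 from transfectant only. Mmp2 with miR-141 was at -0.579 and -0.965.

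The genes nearest to decorin and to biglycan in pattern were found from the 4 log2 values of each gene, centred on the gene's own mean. Likeness was the Euclidean distance over the 4 libraries, among 7734 detected genes. Nearest to Dcn were Fbxo2, a ubiquitin ligase subunit, at 0.28, the chemokine gene Cxcl1 at 0.30, Ccdc120 at 0.35, Kng2 at 0.47 and Pappa, a protease of insulin-like growth factor binding proteins, at 0.52. Cxcl1, for example, was at 10.22 in transfectant only, 9.83 in control miRNA, 10.42 with miR-141 and 11.68 with miR-200c, with the highest and the lowest library the same as for Dcn. Kng2 was detected in 1 library and Pappa in 3, so part of their order and of their distance comes from values at background. Nearest to Bgn were Abhd17c at 0.03, Prkra at 0.06, the actin-binding calponin gene Cnn3 at 0.07, Cep41 at 0.07 and Prrx1, a transcription factor of mesenchyme, at 0.07. All 5 had the libraries in the order of Bgn, from transfectant only at the top to miR-200c at the bottom. The distances are smaller for Bgn than for Dcn, whose range over the libraries was 2.15 against 0.88. Genes picked by a small distance share the order of the libraries through that choice. With 4 points per gene the distances and orders are a description.

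**Figure D5:**
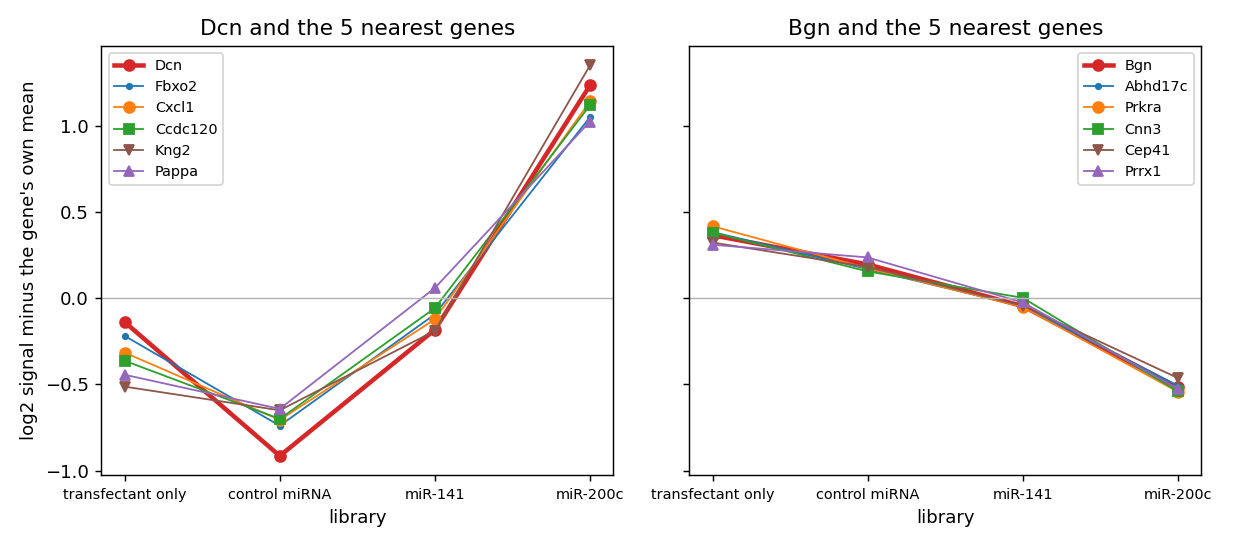
Log2 signal in the 4 libraries minus the gene's own mean, for Dcn (left) and Bgn (right) with the 5 nearest genes of each; lines join the values of 1 gene. Dcn, Fbxo2, Cxcl1 and Ccdc120, detected in all 4 libraries, are lowest in control miRNA and highest with miR-200c. Bgn and its neighbours are highest in transfectant only and lowest with miR-200c. The shared orders follow from the choice by distance.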

How the data were processed

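Labelled cRNA of 4 libraries was read on Illumina bead arrays. The deposited table gave an average bead signal intensity per probe, on a linear scale with no scaling between arrays, and a detection p-value against the array's own background, per the file headers. Per the submitters' processing notes GenomeStudio was used, its version not being given in the sources used here. One table of the authors' processed intensity, of unstated method, was a straight line of each array's raw signals to within 0.0113 units, so its scale was linear and genes were not centred. Its column medians were 46.3 (transfectant only), 44.7 (control miRNA), 45.0 (miR-141) and 45.8 (miR-200c), and how the lines were chosen stays unknown.

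Signals were normexp-corrected, quantile-normalized and log2-transformed after adding an offset of 16 (neqc, limma 3.58.1, R 4.3.3). Later steps ran in Python 3.11.15 with pandas 2.3.3, numpy 2.4.6 and, for plots, matplotlib 3.10.9. Quantile normalization removes a shift shared by most genes, and the offset shrinks differences of dim probes. Of 46632 probes, 29976 had 1 gene symbol, 10 several and 16646 none. Entrez identifiers found 29921 in the RefSeq table of GRCm38.p6, and 0 were renamed. The brightest probe stood for each gene in counts. A fold against a library below detection is "at least", taken against the dim value or, where higher, the array's lowest detected signal (5.29 to 5.37 on the log2 scale). The direct comparisons of the miRNAs and of the controls used 1.5-fold and detection in at least 1 of the libraries compared. The call rule was tested on simulated data. The changes put in were larger than the call size and every gene was set as detected. Calls near 1.5-fold or near detection were therefore not tested.

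The members and lists were chosen with earlier results of these data known. Named were all members, up to 3 called genes each way per list and miRNA, partners of called members, and the 5 nearest genes to Dcn and Bgn in pattern. Alternatives changed the background correction, scaling, offset, detection filter, probe choice, call size and control. No value column lacked a library.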

Additional observations from a re-analysis of the deposited data

How the results depend on the processing

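No paired analysis was possible because each group had 1 library. Higher Dcn with miR-200c was called under each of the 11 alternatives, and under each of 9 for miR-200c against miR-141. Dcn was detected in every library, so no detection filter could change these calls. A call against both controls also holds against either control alone. Dcn was picked on its difference with miR-200c, so nothing is read from these counts. Without median scaling its difference from control miRNA ranged from 1.69 to 2.15. Median scaling moved the detected genes by -0.75 for control miRNA minus transfectant only. Members called with miR-200c went from 2 to 1 with median scaling and at 2-fold, losing Bgn, whose differences were -0.71 and -0.88. With miR-141 the count was 1 against control miRNA alone (Dcn higher) and 1 against transfectant only alone (Sdc1 lower), in place of 0. Between the miRNAs it fell from 2 to 1, losing Sdc1, without background correction, with the authors' values, with an offset of 50 and at 2-fold. Between the controls it went from 1 to 5 under median scaling, and to 0 with the mean of detected probes, with the authors' values and at 2-fold. The cause was not tested. Relative to the -0.75 shift under median scaling, the 5 genes were at -0.79 (Dcn), -0.19 (Bgn), -0.49 (Sdc1), -0.34 (Sdc2) and -0.09 (Hspg2). Of these only Dcn passed the size of a call. Of 210 member differences under 5 alternatives 172 moved by less than 0.30, 38 by more, and 0 called ones changed sign.

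Over all genes, 396 were called with miR-141 (170 higher, 226 lower), 621 with miR-200c, 622 between the miRNAs and 576 between the controls (237 higher, 339 lower). With miR-141 the count was 246 without background correction, 186 with median scaling (101 higher, 85 lower), 192 with the authors' values, 217 with an offset of 50, 105 at 2-fold, 676 against control miRNA alone and 1020 against transfectant only alone. With miR-200c it was 311 with median scaling, 349 with the authors' values, 382 with an offset of 50, 195 at 2-fold, and 1024 and 1225 against the single controls. Between the miRNAs it was 353 without background correction, 311 with the authors' values, 321 with an offset of 50 and 135 at 2-fold. Between the controls it was 182 without background correction, 5334 with median scaling (5 higher, 5329 lower), 172 with the authors' values (109 higher, 63 lower), 152 with an offset of 50, 337 with detection in all 4 libraries and 40 at 2-fold. Signal over background limits Lum, Fmod and Vcan, which have no measured difference, and Dcn and Sdc1, which are dim.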
